A study of Mus musculus with 16 samples.

Results

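Interleukin-2 (gene Il2) and the 3 chains of its receptor (Il2ra, Il2rb and Il2rg) were followed in B cells stimulated through their antigen receptor and, in some genotypes, without the nucleic acid sensors TLR7, TLR9 or both. The 4 genes were taken by name from the non-control spots of a mouse expression array. All 4 were found, each with 1 probe on 1 spot, among 34741 distinct genes on the array. The family was chosen by its change over time on these same arrays, so its changes over time are given as a description with no test.

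IL-2 is a cytokine best known as a growth and survival factor of activated T cells, and mouse B cells can carry its receptor after activation. Il2ra encodes the alpha chain (CD25), which raises the affinity for IL-2 and does not signal by itself. Il2rb encodes the beta chain (CD122), shared with the IL-15 receptor, and Il2rg encodes the common gamma chain, shared with the receptors of IL-4, IL-7, IL-9, IL-15 and IL-21. Beta and gamma chains bring in the kinases JAK1 and JAK3, which activate STAT5.

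RNA came from splenic B cells of AM14 mice, a strain in which the antigen receptor of B cells recognises IgG. There were 4 genotypes: Tlr7/9-/-, Tlr9-/-, Tlr7-/- and WT, all on the AM14 strain. Cells of each genotype were taken unstimulated (0 h) or after 6, 24 or 42 h of stimulation by the IgG antibody PL2-3, which binds chromatin. On each of the 16 arrays the sample was labelled with Cy5, and a pool of unstimulated AM14 B cell RNA from the same 4 genotypes was labelled with Cy3, with no dye swap. The sources used here do not give the age and sex of the mice, how the B cells were purified, the dose of PL2-3 or whether mice were pooled. Each genotype and time had 1 array, so there were no replicates. The order of 2 genotypes at 1 time could therefore not be tested, and a mean over genotypes with its SD describes the spread between genotypes. The effect of PL2-3 and that of culture itself cannot be told apart, since every array after 0 h came from stimulated cells. Tlr7-/- and WT arrays lay on slide 1 and Tlr7/9-/- and Tlr9-/- arrays on slide 2, so the absence of Tlr9 and the slide cannot be told apart.

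Values are log2 of Cy5 over Cy3, that is, relative to the pool, after background correction and loess. A level of 0 equals the pool. The net intensity is the foreground of a spot less its local background. It is given for both colours because the same pool on every array shows how far the denominator itself moved. The share of spots well above background in Cy5 ran from 37.4% (Tlr9-/- at 0 h) to 62.7% (Tlr7-/- at 42 h). The Tlr7 probe was lower in cells lacking Tlr7, with a median of -0.11 (range -0.73 to 0.41), against a median of 1.01 (range 0.32 to 1.71) in cells with the gene, over 8 arrays each, with ranges that overlap slightly. The Tlr9 probe had a median of -0.34 (range -1.14 to 0.04) in cells lacking Tlr9, against -0.42 (range -0.84 to -0.03) in cells with it, so it does not check those labels. All 8 B cell markers, Cd79a, Cd79b and Pax5 among them, were well above background on all 16 arrays.

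The stretches upstream of Il2 and Il2ra are shown because these 2 genes were higher after stimulation, and NFAT and NF-κB factors are known to act there in T cells. Each line is the 250 bases before the RefSeq start (build GRCm38.p6), 5′ to 3′ on the strand of the gene. Capitals mark GGAAA (the NFAT core) or GGGNNNNNCC (a form of the kappa B site) on either strand. The Il2 stretch is chr3:37125955-37126204 on the minus strand, and the Il2ra stretch is chr2:11642542-11642791 on the plus strand.
Il2: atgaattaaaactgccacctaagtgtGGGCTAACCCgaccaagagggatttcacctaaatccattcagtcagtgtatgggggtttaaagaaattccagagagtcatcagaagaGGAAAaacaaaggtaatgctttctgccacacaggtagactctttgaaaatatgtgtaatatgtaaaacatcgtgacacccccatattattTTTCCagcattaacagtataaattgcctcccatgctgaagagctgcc
Il2ra: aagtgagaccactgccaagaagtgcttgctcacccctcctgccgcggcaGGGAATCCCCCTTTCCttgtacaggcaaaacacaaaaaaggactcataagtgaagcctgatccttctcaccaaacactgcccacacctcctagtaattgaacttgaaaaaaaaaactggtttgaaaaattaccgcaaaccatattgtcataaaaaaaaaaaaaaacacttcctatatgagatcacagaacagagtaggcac
GGAAA begins 137 bases before the start of Il2 on the strand of the gene and 47 bases before it on the opposite strand. It begins 190 bases before the start of Il2ra on the opposite strand. The kappa B form begins 224 bases before the start of Il2 and, in 2 overlapping matches, 201 and 200 bases before the start of Il2ra. Neither TGANTCA (the AP-1 form) nor TTCNNNGAA (the STAT5 form) was found in these windows. Such matches are common in windows of this length: of 32851 mouse promoters, 55.6% hold GGAAA, 45.8% the kappa B form, 6.75% TGANTCA and 7.02% TTCNNNGAA. The Il2rg window holds GGAAA once, beginning 23 bases before the start, and Il2rb is named only.

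Il2, the ligand, was well above background in Cy5 on 6 of 16 arrays: the 4 arrays at 6 h and 2 WT arrays later. Its probe lies at chr3:37020012-37020071 (mm9, the build of the array design). At 0 h the log2 level was -0.02 in Tlr7/9-/-, -0.05 in Tlr9-/-, -0.11 in Tlr7-/- and -0.19 in WT cells, with no Cy5 spot well above background. At 6 h it was 1.75 in Tlr7/9-/-, 1.30 in Tlr9-/-, 3.34 in Tlr7-/- and 3.82 in WT cells. The Cy5 net intensity at 6 h was 274 in Tlr7/9-/-, 192 in Tlr9-/-, 1387 in Tlr7-/- and 2335 in WT cells. Both genotypes with Tlr9 were thus high at 6 h and both genotypes without it were intermediate, with no overlap.

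At 24 h the Il2 level was -0.01 in Tlr7/9-/-, 0.14 in Tlr9-/-, 0.01 in Tlr7-/- and 0.30 in WT cells. At 42 h it was 0.10 in Tlr7/9-/-, -0.06 in Tlr9-/-, 0.02 in Tlr7-/- and 0.05 in WT cells. At these later times the WT spots alone were well above background in Cy5, at net intensities of 55.2 at 24 h and 54.6 at 42 h. On that WT array at 42 h the pool, too, was well above background for Il2, the only array of 16 on which it was. Because Il2 was not above background at 0 h, its 6 h change is a lower bound, taken in the Cy5 channel after scaling between arrays (quantiles of average brightness) against the 0 h background. It came to at least 3.36-fold in Tlr7/9-/-, 3.15-fold in Tlr9-/-, 12.8-fold in Tlr7-/- and 25-fold in WT cells. These bounds lack balanced dyes and are open to dye bias.

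The log2 ratio of a dim denominator is compressed by the background offset. With the scanner's processed signals in place of the offset, the 6 h level of Il2 was 5.22 in Tlr7/9-/-, 4.17 in Tlr9-/-, 7.07 in Tlr7-/- and 7.54 in WT cells. The separation of the genotypes by Tlr9 held on that scale too. The processed Il2 level at 24 h was 0.06 in Tlr7/9-/-, 1.09 in Tlr9-/-, -0.15 in Tlr7-/- and 2.31 in WT cells. On that scale Il2 in WT cells was thus still above the pool at 24 h.

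**Figure D1:**
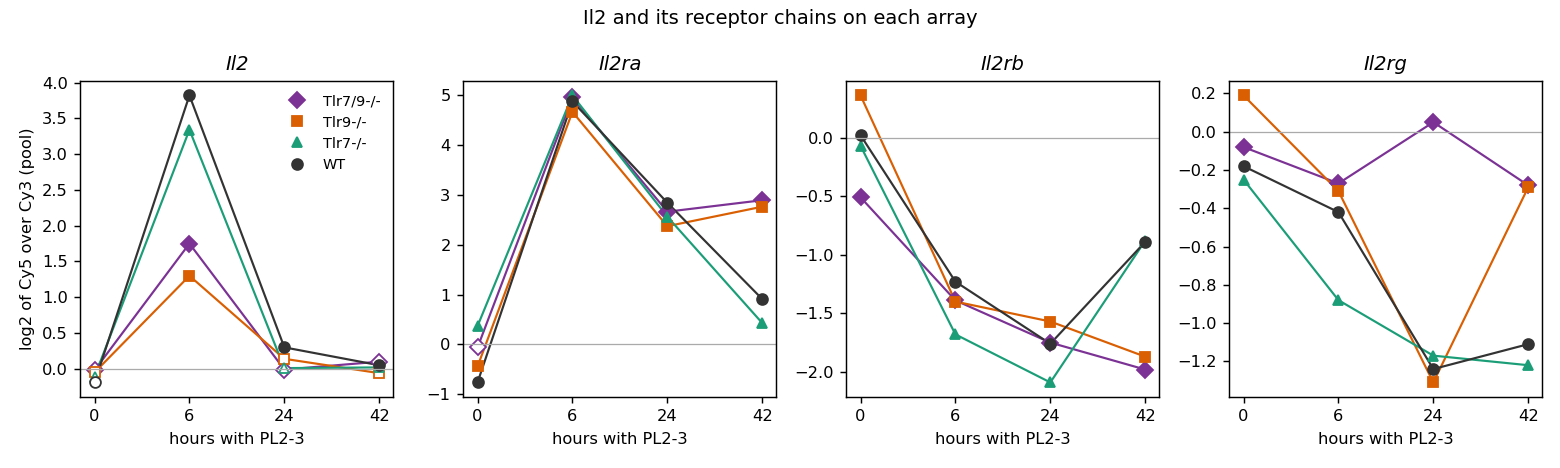
Log2 ratio to the pool (vertical axis) of Il2, Il2ra, Il2rb and Il2rg at 0, 6, 24 and 42 h (evenly spaced steps on the horizontal axis), with 1 line per genotype and 1 point per array. Open symbols mark arrays whose Cy5 spot was not well above background. Il2 lies between 1.30 and 3.82 at 6 h and between -0.06 and 0.30 at 24 and 42 h, and Il2ra lies between 4.66 and 4.99 at 6 h and separates by genotype at 42 h.

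Il2ra, the alpha chain, was higher after stimulation in every genotype, and by far at 6 h. Its probe lies at chr2:11614744-11614803 (mm9). At 0 h the log2 level was -0.06 in Tlr7/9-/- (Cy5 not well above background), -0.44 in Tlr9-/-, 0.37 in Tlr7-/- and -0.76 in WT cells. At 6 h it was 4.95 in Tlr7/9-/-, 4.66 in Tlr9-/-, 4.99 in Tlr7-/- and 4.87 in WT cells. All 4 genotypes were high at 6 h, and the values of cells without and with Tlr9 overlapped, unlike those of Il2 at that time.

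At 24 h the Il2ra level was 2.66 in Tlr7/9-/-, 2.37 in Tlr9-/-, 2.56 in Tlr7-/- and 2.84 in WT cells. At 42 h it was 2.89 in Tlr7/9-/-, 2.76 in Tlr9-/-, 0.43 in Tlr7-/- and 0.91 in WT cells. Between 24 and 42 h the level thus kept its height in both genotypes without Tlr9 and came down in both genotypes with it. The Cy5 net intensity at 42 h was 1439 in Tlr7/9-/-, 930 in Tlr9-/-, 153 in Tlr7-/- and 133 in WT cells. The change from 0 h averaged 5.09 ± 0.41 at 6 h, 2.83 ± 0.58 at 24 h and 1.97 ± 1.44 at 42 h (SD, n = 4 genotypes). At 42 h the 4 changes ran from 0.06 in Tlr7-/- cells to 3.20 in Tlr9-/- cells.

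Over Tlr9-/-, Tlr7-/- and WT cells the 6 h estimate was 5.12 ± 0.51 (SE), the 7th largest rise of 22577 genes measured in that comparison. Of these genes limma called 22.9% higher (17.3% at 42 h). The family was chosen by its change over time, so the place of Il2ra among them is a description only. The pool's own net Cy3 signal for Il2ra was dim and ran from 24.5 to 201 over the 16 arrays. At 42 h it was 73.9 on the Tlr7/9-/-, 67.1 on the Tlr9-/-, 41.7 on the Tlr7-/- and 27.8 on the WT array, where it was not well above background.

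Il2rb, the beta chain, was lower after stimulation in every genotype and at every time. Its probe lies at chr15:78311109-78311168 (mm9), and both colours were well above background on all 16 arrays. At 0 h the log2 level was -0.51 in Tlr7/9-/-, 0.36 in Tlr9-/-, -0.07 in Tlr7-/- and 0.02 in WT cells. At 6 h it was -1.39 in Tlr7/9-/-, -1.40 in Tlr9-/-, -1.68 in Tlr7-/- and -1.23 in WT cells. The lowest 0 h level, in Tlr7/9-/- cells, lay above every 6 h level.

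At 24 h the Il2rb level was -1.75 in Tlr7/9-/-, -1.57 in Tlr9-/-, -2.09 in Tlr7-/- and -1.76 in WT cells. At 42 h it was -1.98 in Tlr7/9-/-, -1.87 in Tlr9-/-, -0.88 in Tlr7-/- and -0.89 in WT cells, so that both genotypes with Tlr9 had moved back up and both without it had not. The change from 0 h averaged -1.37 ± 0.39 at 6 h, -1.74 ± 0.35 at 24 h and -1.35 ± 0.65 at 42 h (SD, n = 4 genotypes). With processed signals the Il2rb changes were larger, from -2.82 to -1.32 at 6 h, -3.11 to -2.50 at 24 h and -3.88 to -1.17 at 42 h. The 42 h Cy5 net intensity was 45.6 in Tlr7/9-/-, 45.5 in Tlr9-/-, 198 in Tlr7-/- and 43.2 in WT cells. The WT array was dim in both colours there, with a pool signal of 97.9, against 234 on the Tlr7/9-/- and 251 on the Tlr9-/- array. The WT value at 42 h thus differs from the values without Tlr9 in the ratio and not in the unscaled Cy5 signal.

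Il2rg, the common gamma chain, was the brightest of the 4 spots. Its probe lies at chrX:98460130-98460189 (mm9), with Cy5 net intensities between 7125 and 20364. At 0 h the log2 level was -0.08 in Tlr7/9-/-, 0.19 in Tlr9-/-, -0.25 in Tlr7-/- and -0.18 in WT cells. At 6 h it was -0.27 in Tlr7/9-/-, -0.31 in Tlr9-/-, -0.88 in Tlr7-/- and -0.42 in WT cells. The 0 h and 6 h values did not overlap, but by a small margin.

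At 24 h the Il2rg level was 0.05 in Tlr7/9-/-, -1.31 in Tlr9-/-, -1.17 in Tlr7-/- and -1.24 in WT cells. At 42 h it was -0.28 in Tlr7/9-/-, -0.29 in Tlr9-/-, -1.22 in Tlr7-/- and -1.11 in WT cells. The Tlr9-/- cells were thus low at 24 h alone, the Tlr7/9-/- cells stayed near the pool throughout, and the Tlr7-/- and WT cells were low at both later times. The change from 0 h averaged -0.39 ± 0.21 at 6 h, -0.84 ± 0.69 at 24 h and -0.65 ± 0.37 at 42 h (SD, n = 4 genotypes). The direction at 6 h depended on the scaling: with each array centred on its median in place of loess, every genotype was higher at 6 h, by 0.08 to 0.62. The change at 24 h under median centring was 0.60 in Tlr7/9-/-, -1.02 in Tlr9-/-, 0.45 in Tlr7-/- and 0.28 in WT cells, so the low levels of Tlr7-/- and WT cells at 24 h did not hold there.

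The levels of cells without Tlr9 (Tlr7/9-/- and Tlr9-/-) and with it (Tlr7-/- and WT) were set against each other at each time, 2 arrays against 2, with the split chosen after the values were seen and no test made. At 6 h Il2 averaged 1.53 without Tlr9 and 3.58 with it, a difference of -2.06 on the compressed scale, since the pool was not well above background for Il2 on any 6 h array. At that time the arrays of the 2 sets did not overlap, in the lower direction, in 27.9% of 18893 genes, and in 0.709% they also lay at least 2-fold apart (27.8% and 0.783% in the higher direction). The Il2 difference was -2.61 both with median centring and with processed signals. Il2ra at 6 h averaged 4.81 without Tlr9 and 4.93 with it, and the arrays overlapped. With median centring the Il2ra arrays at 6 h did not overlap, at a difference of -0.54, and with processed signals they were apart by a difference of -0.21. At 24 h the Il2ra difference was -0.19 with overlap, and -0.80 without overlap under median centring.

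At 42 h all 3 receptor chains separated. Il2rg had also been apart without overlap at 0 h, before stimulation, by 0.27, and at 6 h, by 0.36. With median centring the Il2rg arrays overlapped at both of these times. Il2rb had been apart at 24 h, by 0.26, but overlapped there with median centring and with processed signals. Il2ra averaged 2.82 without Tlr9 and 0.67 with it, a difference of 2.15 (4.45-fold), the 47th from the highest of 19433 genes. Il2rb averaged -1.92 without Tlr9 and -0.89 with it, a difference of -1.04 (2.05-fold lower). Il2rg averaged -0.28 without Tlr9 and -1.17 with it, a difference of 0.88 (1.84-fold). The Il2ra difference was 2.24 with median centring and 2.05 with processed signals. The Il2rg difference was 0.55 with median centring, and that of Il2rb was -1.77 with processed signals, in each case without overlap. At 42 h, 27.8% of all genes did not overlap and were higher without Tlr9, and 29% did not overlap and were lower. With the 2-fold limit added, these shares were 1.88% and 3.31%. Among the chains Il2ra therefore stood far out in the distribution of all genes, while 509th from the highest (Il2rg) and 596th from the lowest (Il2rb) were less extreme places.

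**Figure D2:**
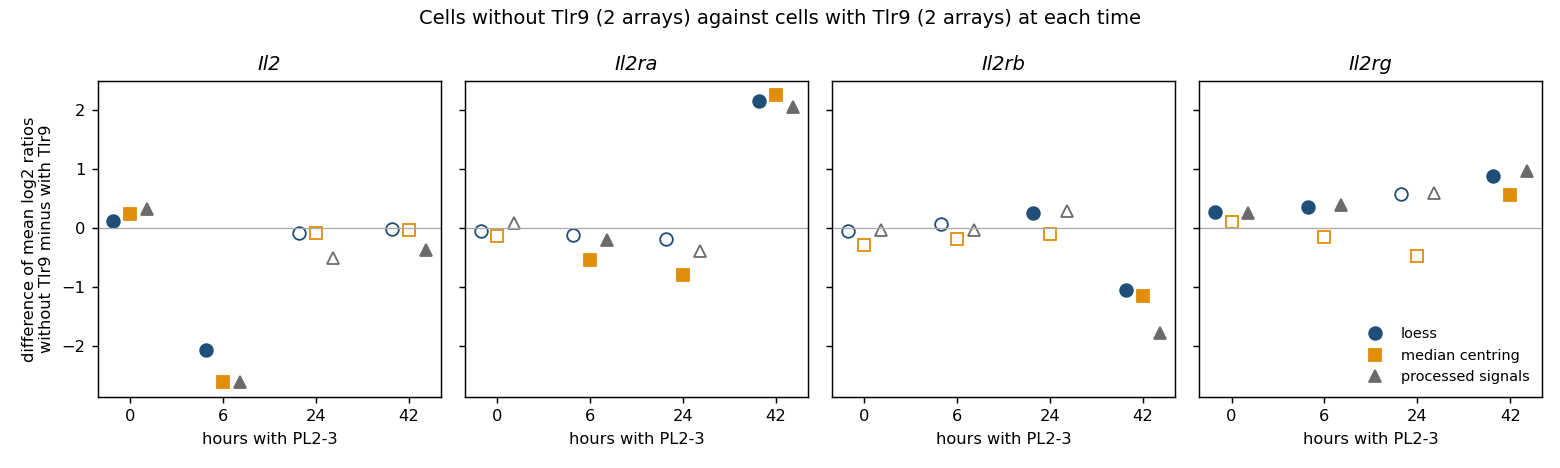
Difference of mean log2 levels, cells without Tlr9 minus cells with Tlr9 (2 arrays each), for each gene at 0, 6, 24 and 42 h. Open symbols mark times at which the arrays of the 2 sets overlap. The Il2 point at 6 h is at -2.06 and the Il2ra point at 42 h at 2.15.

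Tests of genotype over all stimulated times, with time as a term, called none of the 4 genes (limma, Benjamini-Hochberg adjustment over all genes, threshold 0.05), though 1 of them, Il2rg, had a low unadjusted p in 1 comparison. These tests average 6, 24 and 42 h, and so average over times at which Il2 and Il2ra behaved differently. In Tlr7/9-/- cells less the other 3 genotypes, Il2 differed by -0.38 ± 0.41 (SE, limma adjusted p = 0.655) and Il2ra by 0.57 ± 0.42 (adjusted p = 0.49). Il2rb differed by -0.22 ± 0.23 (limma adjusted p = 0.634). Il2rg was 0.72 ± 0.22 higher, with a 95% interval of 0.24 to 1.2, a limma p of 0.00716 before adjustment and 0.142 after it. With median centring the Il2rg difference was 0.28.

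Of 23029 genes, 0% were called by limma in that comparison, although 4397 had an unadjusted p under 0.05. Without the Tlr9-/- arrays, 2947 genes were called, and Il2rg was among them, at 0.84 (limma adjusted p = 0.0156). That reduced comparison sets the Tlr7/9-/- arrays of slide 2 against slide 1 alone.

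The comparison of Tlr9-/- with WT cells, in which 0.0521% of all genes were called, gave -0.93 ± 0.46 for Il2 (limma adjusted p = 0.585). It gave 0.39 ± 0.53 for Il2ra (limma adjusted p = 0.864), -0.32 ± 0.29 for Il2rb (adjusted p = 0.775) and 0.29 ± 0.25 for Il2rg (adjusted p = 0.77). The 95% interval for Il2 ran from -1.97 to 0.11.

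The other 2 comparisons lie within a slide. In Tlr7-/- less WT cells, with 0.00434% of genes called, Il2 differed by -0.27, Il2ra by -0.21, Il2rb by -0.26 and Il2rg by -0.16, each with a limma adjusted p of 1. In Tlr7/9-/- less Tlr9-/- cells, with 0.0434% called, the differences were 0.15 for Il2, 0.24 for Il2ra, -0.09 for Il2rb and 0.47 for Il2rg, and the lowest limma adjusted p, that of Il2rg, was 0.819. The intervals remain wide: for Il2ra they ran from -1.4 to 0.98 in Tlr7-/- less WT cells and from -0.95 to 1.43 in Tlr7/9-/- less Tlr9-/- cells.

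Each genotype was also taken against its own 0 h array. The response of Tlr7/9-/- cells less the mean response of the others, with 0.0382% of 23555 genes called, was -0.48 ± 0.75 for Il2, 0.35 ± 0.86 for Il2ra, 0.39 ± 0.47 for Il2rb and 0.72 ± 0.41 for Il2rg. None passed, with limma adjusted p-values of 0.911 for Il2, 0.948 for Il2ra, 0.877 for Il2rb and 0.713 for Il2rg.

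IL-2 is chiefly a T cell product, and T cell genes were measured beside it. Of 12 T cell markers, 11 were tested at 6 h against 0 h, 0 rose and 9 fell (with median centring 1 rose and 6 fell), where 23.8% of all genes were called lower. Their summed Cy5 signal, scaled between arrays, was 4116 to 5701 at 6 h, against 28088 to 30187 at 0 h. Most of that sum was Cd2, so the fall of the sum chiefly follows that of 1 gene. In WT cells the unscaled sum was 38963 at 0 h and 6187 at 6 h, of which Cd2 held 34702 and 3679. The defining markers were dim there, with Cd3d at 227 and 76.2, Cd3e at 569 and 529, and Cd3g at 136 and 38.9. Over the T cell markers the 6 h sum was 5519 to 5701 without Tlr9 and 4116 to 4287 with Tlr9. Cd5, which some B cells also express, was 1.61 higher without Tlr9 at 6 h. Cd3d (-0.12) and Cd3e (-0.11) overlapped between the 2 sets, whereas Cd3g (0.16) did not. Of 11 T cell markers measured at 6 h, 5 were higher and 2 lower without overlap, where 27.8% and 27.9% of all genes were. Cd3e, a chain of the T cell receptor complex, stayed well above background, with a log2 level at 6 h of -0.27 in Tlr7/9-/-, -0.07 in Tlr9-/-, -0.14 in Tlr7-/- and 0.02 in WT cells. Of 6 markers of regulatory and activated T cells, 3 were tested at 6 h, 1 rose and 1 fell (with median centring 1 rose and 0 fell). Their summed scaled signal was 1435 to 1896 at 6 h, against 1102 to 1305 at 0 h. Tnfrsf4 held most of it: in WT cells 1020 of an unscaled 1165 at 0 h and 1527 of 1664 at 6 h. Of the defining markers of this list, Cd40lg was not well above background on any 6 h array, and Foxp3 was on 3 of 4. Tnfrsf4 had a 6 h level of 1.14 in Tlr7/9-/-, 0.87 in Tlr9-/-, 0.73 in Tlr7-/- and 0.74 in WT cells. In bulk RNA, fewer cells of a type and less RNA per cell cannot be told apart. Of the defining T cell markers, Cd3d and Cd3e were well above background on 16 arrays and Cd3g on 15. Among the 8 B cell markers, 6 fell and 0 rose at 6 h (with median centring 6 fell and 1 rose). Their summed signal was 72739 to 90452 at 6 h, against 244601 to 326613 at 0 h. Cd72 did not fall: its level was higher at 6 h than at 0 h in every genotype, at 0.38 against -0.11 in WT cells. The part of T cells in the Il2 signal was not tested.

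Il2rb is also a gene of NK cells, and NK cell markers were lower at 6 h as well, as were most B cell, T cell and myeloid markers tested. Of 9 NK cell markers, 8 were tested at 6 h, 0 rose and 7 fell, where 23.8% of all genes were called lower (with median centring 6 fell). Their median change was -1.1, against 0 over all genes and -2.19 over the B cell markers. Their summed scaled Cy5 signal was 1336 to 1602 at 6 h, against 3394 to 5461 at 0 h. Gzma, a granzyme of NK and cytotoxic T cells, stood at 6 h at -3.56 in Tlr7/9-/-, -3.43 in Tlr9-/-, -3.14 in Tlr7-/- and -2.98 in WT cells. At 0 h Gzma was at -0.86 in Tlr7/9-/-, -0.24 in Tlr9-/-, 0.68 in Tlr7-/- and 0.80 in WT cells.

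At 42 h Gzma was at -4.50 in Tlr7/9-/-, -4.22 in Tlr9-/-, -4.22 in Tlr7-/- and -3.40 in WT cells. Nkg7, another gene of NK cells, stood at 42 h at -0.21 in Tlr7/9-/-, -0.84 in Tlr9-/-, -0.80 in Tlr7-/- and -0.76 in WT cells. At 24 h Nkg7 was at -0.73 in Tlr7/9-/-, -1.11 in Tlr9-/-, -1.63 in Tlr7-/- and -1.66 in WT cells. From 24 to 42 h Nkg7 thus moved up in all 4 genotypes, while Il2rb moved up in Tlr7-/- and WT cells. At 42 h 0 of 7 measured NK markers lay 2-fold apart without overlap between cells without and with Tlr9. By that measure 1.88% of all genes were higher and 3.31% lower, so a count of 0 among 7 genes does not set them apart. The summed NK signal at 42 h was 1775 to 2126 without Tlr9 and 1734 to 2721 with it. The part of NK cells in the lower Il2rb level at 6 h was not tested. Myeloid and dendritic cell markers were lower at 6 h too, with 7 of 9 tested falling and 0 rising, where 23.8% of all genes were called lower.

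**Figure D3:**
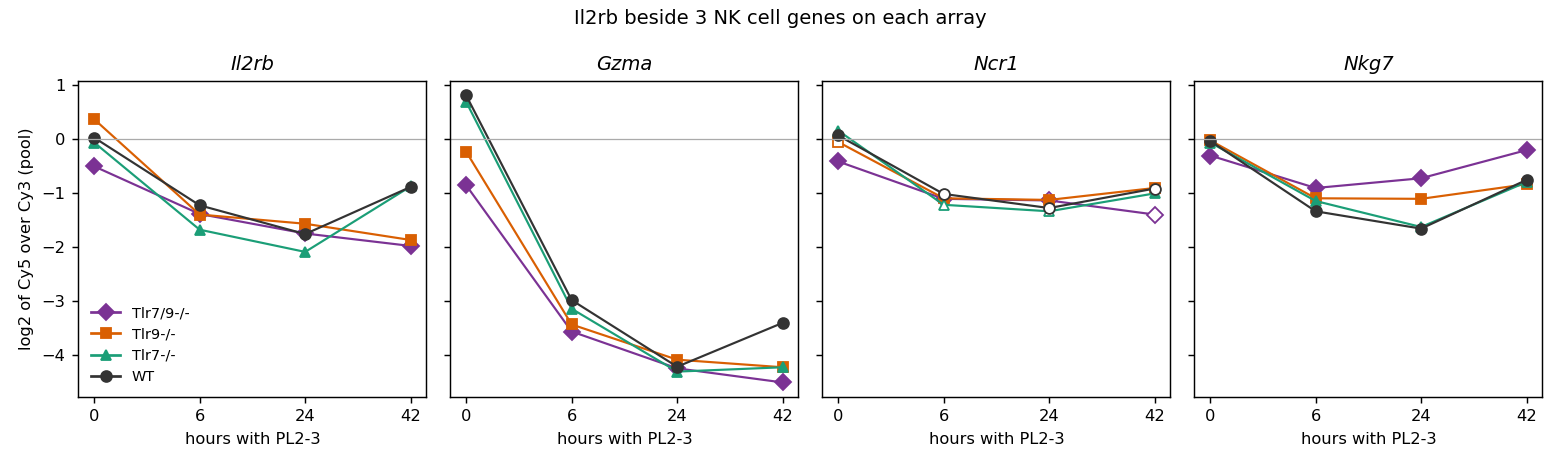
Log2 ratio to the pool of Il2rb and of the NK cell genes Gzma, Ncr1 and Nkg7 at 0, 6, 24 and 42 h, with 1 line per genotype. Open symbols mark arrays whose Cy5 spot was not well above background. Gzma stays at or below -2.98 from 6 h on in all genotypes, while Il2rb is at -0.88 and -0.89 at 42 h in Tlr7-/- and WT cells.

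The other genes of the pathway were counted at 6 h against 0 h over Tlr9-/-, Tlr7-/- and WT cells (limma adjusted p under 0.05, which 46.7% of all genes passed at 6 h, against 48.6% at 24 h and 37.8% at 42 h). The list of other cytokines and receptors that use the common gamma chain had 10 genes, of which 6 were tested, 3 rose and 2 fell. Il21r, the IL-21 receptor, rose by 1.25 ± 0.20 (SE, limma adjusted p = 0.000705). Il9r, the IL-9 receptor, was lower (-1.10 ± 0.13, limma adjusted p = 8.63e-05), as was Il4ra, the IL-4 receptor (-0.87 ± 0.19, limma adjusted p = 0.00366). The partners of Il2rg thus moved in both directions, with a median of 0.22 against 0 over all genes.

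Of 15 kinases, STATs and adaptors that act below the receptor, 4 rose and 8 fell at 6 h, with a median of -0.26. With median centring 8 rose and 5 fell, and 2 calls changed sign. Jak3, the kinase bound to the gamma chain, was at -2.49 ± 0.09 (limma adjusted p = 2.06e-07). The phosphatase Ptpn6 (SHP-1) was at -2.51 ± 0.18, and the kinase Syk, which signals from the antigen receptor, was at -3.39 ± 0.29. These 3 genes were lower under both scalings. At 24 h 2 rose and 10 fell, where 22.6% of all genes were called higher and 26% lower. At 42 h 1 rose and 9 fell, where 20.6% of all genes were called lower (with median centring, 4 rose and 2 fell at 24 h, and 1 rose and 3 fell at 42 h).

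Of 17 known targets and feedback genes of STAT5, 7 rose and 4 fell at 6 h, with a median of 0.29. Myc, a growth regulator, was at 4.81 ± 0.23, Bcl2l1, which encodes the survival protein BCL-XL, at 2.61 ± 0.21 and Ccnd2, a D-type cyclin, at 1.96 ± 0.14, and each passed the limma test. At 24 h and at 42 h 5 rose and 4 fell (with median centring, 8 rose and 2 fell at 6 h, 8 rose and 1 fell at 24 h, and 5 rose and 1 fell at 42 h). These genes answer to other pathways as well, the antigen receptor among them.

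Between cells without and with Tlr9 at 42 h, when Il2ra differed, 2 of 16 measured STAT5 targets were at least 2-fold higher and 5 at least 2-fold lower without overlap, where 1.88% of all genes were higher and 3.31% lower by that measure. Named after their values were seen, the higher genes were Cish (1.11), a feedback inhibitor of cytokine signalling, and Myc (1.12). The lower ones were Socs3 (-1.22), Pim1 (-1.03), Pim2 (-1.10), Ccnd3 (-1.40) and Lta (-1.85). Cish was dim, and its WT spot was not well above background. Its Cy5 net intensity was 18.8 in WT, 72.9 in Tlr7-/-, 113 in Tlr9-/- and 273 in Tlr7/9-/- cells. For Pim1 the Cy5 net intensity was 53.1 in WT cells, against 1243 in Tlr7-/-, 332 in Tlr9-/- and 787 in Tlr7/9-/- cells. Its WT value thus lies above those without Tlr9 in the ratio and not in the unscaled Cy5 signal. STAT5 targets therefore did not share 1 direction at the time at which Il2ra stayed high.

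Of 18 transcription factors known to bind the Il2 or Il2ra gene, 4 rose and 8 fell at 6 h (with median centring 7 rose and 6 fell, with 2 calls changing sign). Batf was at 3.47 ± 0.29, Fos at -4.68 ± 0.12 and Jun at -3.23 ± 1.06 (limma adjusted p = 0.0308), all members of the AP-1 family and its partners. At 24 h 2 rose and 11 fell, and at 42 h 1 rose and 8 fell (with median centring, 4 rose and 4 fell at 24 h, and 2 rose and 6 fell at 42 h). Between cells without and with Tlr9 at 6 h, when Il2 differed, 2 of 17 measured factors were at least 2-fold higher without overlap, Nfatc2 (1.02) and Fosl2 (2.06), where 0.783% of all genes were. Lower by the same measure, and likewise named after their values were seen, were Nfkb1 (-1.01), Jun (-2.68) and Batf (-1.90), where 0.709% of all genes were. In Tlr7/9-/- cells against the other genotypes, limma called no gene of any of these 4 lists, where it called 0% of all genes.

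The profile of each gene over the 16 arrays was compared with that of 18976 others by Pearson correlation, as a description of points that share the pool, the slides and the times. The 3 profiles most like Il2 were those of Ccr7 (0.968), Abtb2 (0.955) and Nfkb1 (0.953). Most like Il2ra were Atp1b3 (0.986), Txn2 (0.983) and Pepd (0.982). Most like Il2rb were Phldb3 (0.969), a transcript listed as ENSMUST00000103318 (0.967) and Trp53i13 (0.967). Most like Il2rg were Cd84 (0.967), Oprm1 (0.962) and a transcript listed as TC1719686 (0.96).

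Within the family, Il2 and Il2ra had a correlation of 0.748 and Il2ra and Il2rb one of -0.733. The gamma chain followed none of the others closely, at 0.413 with Il2rb, -0.139 with Il2ra and -0.032 with Il2. No member was among the 3 profiles most like another.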

How the data were processed

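Array images were processed in Agilent Feature Extraction (version 10.1.1.1), per the file headers. The deposited spot intensity of each colour is uncorrected, and the authors' series table holds the log10 ratio of Feature Extraction's processed signals. From the intensities, log2 ratios of Cy5 over Cy3 were computed in R 4.3.3 with limma 3.58.1: normexp background correction (offset 50), loess within each array, control spots left out. Other deposited columns are flags, per the file headers. The brightest probe stood for its gene and was tested if 3 or more arrays showed it well above background in 1 or both colours. Moderated linear models (lmFit, eBayes, 2-sided) were fitted for 8 comparisons, with p-values adjusted by Benjamini-Hochberg over all genes. Time contrasts used genotype as a term, and genotypes stood in for replicates. Genotype contrasts used time as a term, and times stood in for replicates. The fit was tested on simulated data. No fit dropped or imputed an array for the 4 genes.

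The members and lists were chosen with earlier results of these data known. Genes were named by rule: all members, the 3 most similar profiles of each, and up to 3 called genes per list with the largest change at 6 h. Alternatives were median centring, processed signals, the authors' table, other filters and probe rules, a slide term, and leaving out arrays. Promoters are RefSeq's. Probe positions within transcripts were not analysed here.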

Additional observations from a re-analysis of the deposited data

How the results depend on the processing

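Of 117 recomputed time changes of the 4 genes, 1 changed direction and 22 moved by more than the spread between genotypes. Among 211 recomputed genotype differences, 6 changed direction and 1 became stronger. With median centring, Il2rg at 6 h was 0.40, and Il2rg in Tlr9-/- less WT cells was -0.35. With a slide term, Il2 in Tlr7/9-/- less the other genotypes was 0.15. Leaving out 1 genotype or time moved Il2rb in that comparison between -0.36 and 0.05, and Il2rg between 0.43 and 0.95. It moved Il2ra between -0.34 and 0.82 and Il2rb between -0.58 and 0.01 in Tlr9-/- less WT cells, and Il2ra in the response difference between -0.13 and 0.60. Genes called at 42 h numbered 8541, and 4116 to 9912 without 1 genotype. Genes called in Tlr7/9-/- less the others numbered 3 with probes averaged, 7 with a slide term and 0 to 2947 with 1 genotype or time left out. In Tlr9-/- less WT cells 12 genes were called, 37 with median centring, 5 with processed signals, 5 with the series table and 4 to 15 with 1 left out. In Tlr7/9-/- less Tlr9-/- cells 10 were called, 6 with median centring, 6 with processed signals and 5 with 1 left out. The response difference gave 9, with median centring 1, and 0 to 1 with 1 left out. Il2 gave no value without the WT arrays (changes over time) or without the 6 h arrays (genotypes). Under median centring the median of all genes was 0.22 at 6 h (0 with loess), 0.22 at 24 h (0.01), 0.08 at 42 h (0) and -0.27 in Tlr9-/- less WT cells (-0.01 with loess). It made the higher calls 75.7% of all calls at 6 h (49% with loess), 76.9% at 24 h (46.6%), 58.6% at 42 h (45.6%) and 10.8% in Tlr9-/- less WT cells (50% with loess). With processed signals the time changes of Il2 were 6.85 at 6 h and 1.68 at 24 h, and those of Il2rb were -2.32 and -3.06. No paired analysis was possible because the labels give no replicate numbers to pair by. The time changes already carry genotype as a term. The cause of these differences was not tested. Il2 below background at most times, and the number of arrays, limit precision.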
